A study of Mus musculus with 6 samples.

Results

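The cytosolic ribosomal protein genes encode the protein part of the ribosome that works in the cytoplasm. Members were the protein-coding genes whose name began with Rpl or Rps followed by a digit or a p, without the S6 kinase genes and without Rpl39l and Rpl10l. This name rule found 92 of the 54551 genes in the deposited tables, of which 22058 were protein-coding. It took 43 genes of the large subunit, 3 genes of the P-stalk and 30 genes of the small subunit. These 76 genes are called the core genes below. The other members were 6 paralogues or retrotransposed copies (Rpl3l, Rpl7l1, Rpl22l1, Rpl36al, Rps27l and Rps27rt), 9 genes whose names carry the suffix ps, and Rps19bp1. Rps19bp1 encodes a protein that binds RPS19 and is not itself a ribosomal protein. The rule left out Rpsa and Fau, which also encode ribosomal proteins under other names.

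A ribosome holds 1 copy of most of its proteins, so cells make these proteins in matched amounts. Their mRNAs begin with a run of pyrimidines, the terminal oligopyrimidine (TOP) element, through which mTOR signalling and LARP1 set their translation together. Subunits that are not built into a ribosome are degraded, and RPL5 and RPL11 with the 5S ribosomal RNA can bind MDM2 and so stabilise p53. In granulosa cells, gonadotropins act on translation through the same pathway, and RPS6 phosphorylation is a common readout of it.

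Granulosa cells, the steroid-producing cells around the oocyte, came from ovaries of C57BL/6 mice on postnatal day 21. All mice had been given 5 IU of PMSG for 48 h, which drives follicle growth, and 5 IU of hCG for 6 h, which stands in for the ovulatory surge. The labels give 3 libraries as wild type and 3 as Gm12840-/-, the deletion of a long noncoding RNA gene, and both groups share strain, age and hormones. The labels do not say how the allele was made, or whether animals were pooled or a library came from 1 animal, so a p-value here covers no more than the spread from library to library, which may be technical.

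Before the members, the libraries themselves were checked. Depth recovered from the tables was 16392098 to 19465847 reads per library. The targeted gene, Gm12840, ranged from 0.365 to 1.83 FPKM under the wild-type label and from 0.426 to 1.45 FPKM under the knockout label, or 5 to 17 against 5 to 14 reads, with an exact two-sided permutation p = 0.9 where 0.1 is the smallest possible. The labels do not give the extent of the deletion, so reads outside it would check nothing. The targeted gene gives the labels no support, and every direction below rests on them as they stand. All 9 granulosa markers passed the filter, with a summed level of 4661 to 11965 FPKM. Genes encoded in mitochondria took 0.146% to 4.19% of the reads, and libraries of the same label stood at both ends of that range. Markers of other ovarian cells were also detected, and none of the 42 genes in those lists was at 0 in every library.

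The promoters of the members are shown first, because the TOP element lies at the transcript start. Members were taken by name, and not all of their windows hold it. RefSeq windows on GRCm38.p6, from 250 bases before to 50 bases after the annotated start, were found for 63 members in 75 windows. A TOP-like run was searched as a C followed by at least 5 bases that were each C or T, beginning within 10 bases of the start on the transcript strand. It was found in 35 of 75 member windows (46.7%) and in 19.2% of all 32851 windows. In the 30-base windows that follow, written 5′ to 3′ on the transcript strand with 15 bases before the annotated start, the capitals mark that run.
Rps6 (chr4:86857353-86857382, minus): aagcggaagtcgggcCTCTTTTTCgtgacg
Rpl35 (chr2:39005117-39005146, minus): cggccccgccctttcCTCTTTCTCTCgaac
Rpl28 (chr7:4792950-4792979, plus): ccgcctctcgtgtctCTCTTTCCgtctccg
Rps18 (chr17:33955651-33955680, minus): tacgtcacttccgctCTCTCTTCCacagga
Rpl38 (chr11:114668565-114668594, plus): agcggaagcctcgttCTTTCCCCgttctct
Rpl15 (chr14:18270972-18271001, minus): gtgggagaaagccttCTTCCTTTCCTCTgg
Rplp2 (chr7:141447636-141447665, plus): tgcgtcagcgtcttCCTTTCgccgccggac
Rpl41 (chr10:128549154-128549183, minus): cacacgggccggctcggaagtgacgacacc
In Rps6, Rpl35, Rpl28, Rps18, Rpl38 and Rpl15 the capitals begin at the annotated start itself, and in Rplp2 they begin 1 base before. The search marked each run from the C nearest the annotated start, so these positions follow in part from the search. In each of these windows the base before the capitals is also C or T, so the pyrimidines begin further upstream. The Rpl41 window holds no such run, which says only that these letters are not near the RefSeq start of that gene.

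Other short motifs in the same windows were counted on both strands. The GABP and ETS motif CCGGAAG was in 33.3% of member windows and 8.86% of all windows. The YY1 motif AAGATGGC was in 10.7% and 2.75%, and the SP1 motif GGGCGG in 60.0% and 35.7%. The TATA motif TATAAA was in 9.33% of member windows and 13.6% of all windows. CCGGAAG and AAGATGGC can overlap by their shared letters, which happened in 0 member windows, and the TOP-like run overlapped the reverse complement of CCGGAAG in 1.

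A second pair of windows is shown because Rps27rt is a processed copy of Rps27 and its values departed from those of the other members.
Rps27 (chr3:90213634-90213663, minus): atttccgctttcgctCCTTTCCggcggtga
Rps27rt (chr9:114982725-114982754, minus): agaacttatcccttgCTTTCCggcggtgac
The capitals again mark the TOP-like run from the C nearest the annotated start, 7 bases in Rps27 and 6 in Rps27rt. In Rps27 a C and a T stand before the capitals, so its whole pyrimidine stretch is longer than the marked part. In Rps27rt a G stands before them. The principal transcript of Rps27 in GENCODE M21 (345 nt) and the transcript of Rps27rt (374 nt) were identical over all 341 aligned bases.

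Ribosomal protein genes took a share of the reads that differed several-fold between libraries of the same label. Their share of all reads was 13.1%, 9.57% and 4.58% in wild type 1 to 3, as the libraries are numbered in their labels. It was 6.20%, 3.68% and 12.1% in knockout 1 to 3. Exact binomial 95% intervals on these shares reached at most 0.0162 percentage points to either side and cover counting error only. The group means were 9.08 ± 4.28% and 7.34 ± 4.33% (SD, n = 3 each), so the difference between the means was smaller than the SD within either group. Wild type 1, knockout 3 and wild type 2 were the high libraries, knockout 1, wild type 3 and knockout 2 the low ones, and the groups overlapped. In bulk RNA, fewer cells rich in these transcripts and less of the transcripts per cell cannot be told apart.

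**Figure D1:**
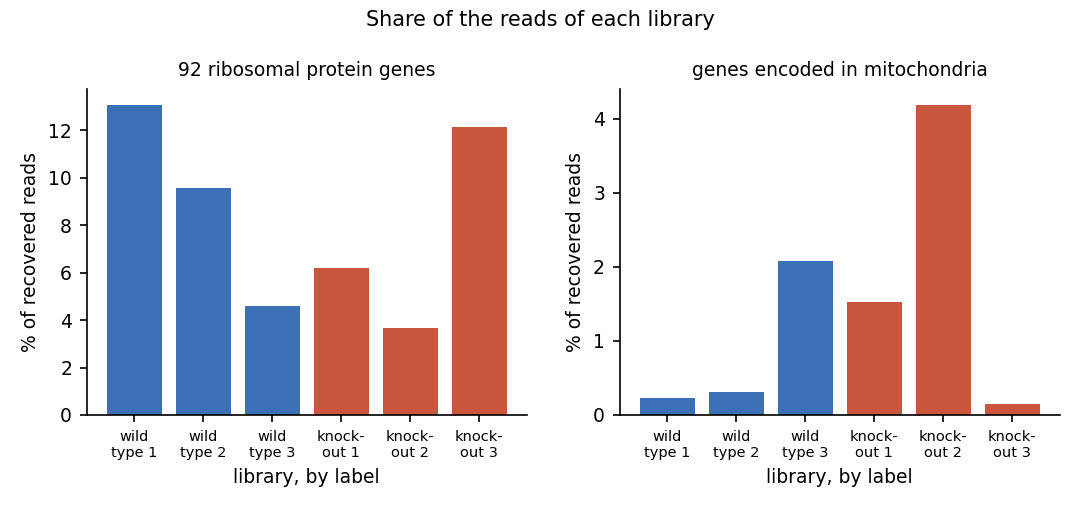
Share of the recovered reads (%, each axis from 0) in the 92 ribosomal protein genes (left) and in genes encoded in mitochondria (right), 1 bar per library, blue for wild-type and red for knockout labels. The ribosomal protein share is highest in wild type 1 (13.1%) and lowest in knockout 2 (3.68%), and the mitochondrial share is highest in knockout 2 (4.19%).

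The core genes moved through the libraries together. Their median level was 870 FPKM in wild type 1, 615 in wild type 2 and 256 in wild type 3. It was 347, 205 and 764 FPKM in knockout 1 to 3. The same 3 libraries, wild type 1 and 2 and knockout 3, held the 3 highest values in 73 of the 76 core genes, and in 34.9% of all 12495 genes tested. The full order wild type 1, knockout 3, wild type 2, knockout 1, wild type 3, knockout 2 was found in 52 of the 76. Across the 6 libraries the highest value of a core gene was 1.35 to 13.2 times its lowest, with a median of 4.42 times, against a median of 2.32 times over all genes tested. The core genes share their libraries, so these counts describe 6 libraries and not 76 replicates.

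**Figure D2:**
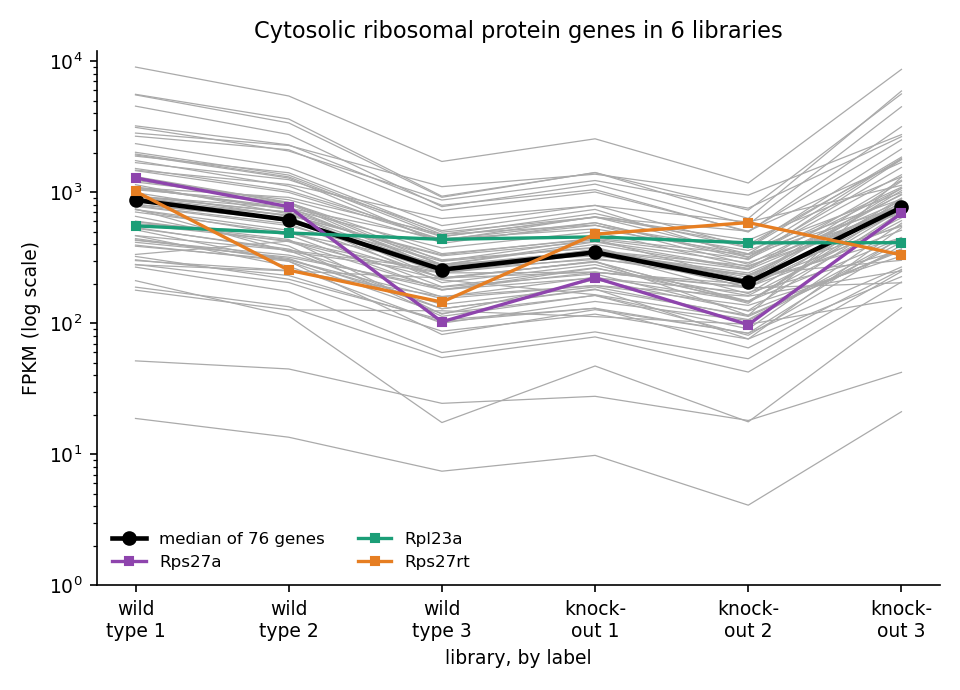
FPKM (log axis) of the 76 core genes in each library, 1 grey line per gene, with their median in black and 3 members in colour. The median runs from 870 FPKM in wild type 1 to 205 in knockout 2, Rpl23a is nearly flat, and Rps27rt departs from the common pattern in knockout 1 and 2.

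The test between the labelled groups, limma on log2(FPKM + 1) of genes above 1 FPKM in 3 or more libraries, covered 88 of the 92 members. It called 0 of them at an adjusted p under 0.05, in a fit that called 0% of the 12495 genes tested. At an unadjusted p under 0.05 it gave 0 members, where 0.728% of all genes tested reached that value, and limma-voom on recovered reads also called 0 members, with 0 at an unadjusted p under 0.05. The fold change was negative in 87 of the 88, with a median of -0.42 on the log2 scale beside -0.04 over all genes tested. Every adjusted p of a member was 0.993 by limma. The groups did not overlap in 0 members, where 3.53% of all genes tested had groups that did not. The median 95% interval reached 1.6 to either side of the estimate for the members and 0.735 for all genes tested, so a 2-fold difference would lie within the typical member's interval.

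**Figure D3:**
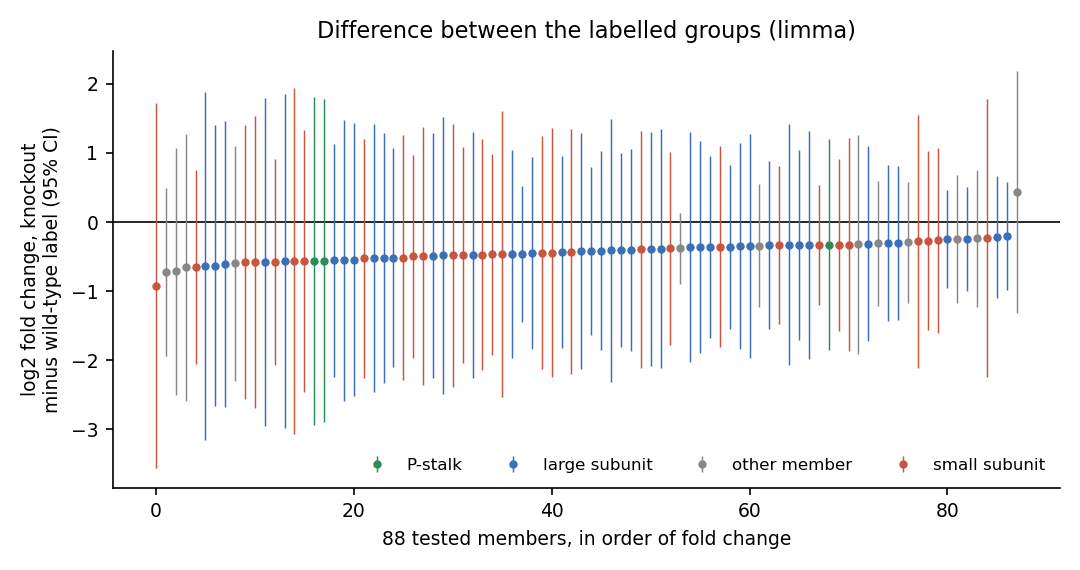
Difference in log2(FPKM + 1), knockout minus wild-type label, of the 88 tested members in ascending order, with 95% intervals from limma and colours for the subunit. All 88 intervals include 0, and the estimates run from -0.92 (Rps27a) to 0.44 (Rps27rt).

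That common direction depended on single libraries. The median fold change of the members was 0.0073 without the library labelled knockout 2, when 40 of 88 were negative. It was -0.063 without wild type 1, and -0.92 without wild type 3 or without knockout 3. Without replicate 3 of both groups, a setting added once the data had been seen, limma called 50 of the 88 members, all lower in the libraries labelled knockout, where 16.3% of all genes tested were called lower and 11.3% higher. That alternative sets high-share libraries (wild type 1 and 2) against low-share libraries (knockout 1 and 2), so the label and the library pattern cannot be told apart in it.

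Several other measures moved with the members across libraries, and their part in the pattern was not tested unless a value is given. The share of mitochondrially encoded genes was 0.227%, 0.311% and 2.08% in wild type 1 to 3 and 1.52%, 4.19% and 0.146% in knockout 1 to 3, so the 3 libraries high in ribosomal protein reads were the 3 lowest in mitochondrial reads. The 5 erythroid markers, which stand for red blood cells, had a summed level of 4455, 2793 and 613 FPKM in wild type 1 to 3 and 756, 473 and 3512 FPKM in knockout 1 to 3. This is the same order of libraries as the order most common among the core genes. Of the erythroid list, 0 genes were at 0 in every library, and Alas2, the haem synthesis enzyme of erythroid cells, stood at 3.46 to 11.2 FPKM. The 8 oocyte markers had a summed level of 438, 385 and 242 FPKM in wild type 1 to 3 and 274, 221 and 386 FPKM in knockout 1 to 3. Their sum had the same order of libraries, so this order was not particular to the erythroid markers. The granulosa markers had a summed level of 11965, 11299 and 6388 FPKM in wild type 1 to 3 and 6420, 4661 and 9131 FPKM in knockout 1 to 3. This sum, too, was highest in wild type 1, wild type 2 and knockout 3 and lowest in knockout 2. Their median deviation from each gene's mean, in log2(FPKM + 1), did not follow that pattern. It was 0.17, -0.04 and 0.08 in wild type 1 to 3 and -0.21, 0.10 and -0.08 in knockout 1 to 3.

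Gene length also moved with the pattern. The slope of log2 values on log2 exon length was -0.260, -0.213 and -0.0230 in wild type 1 to 3 and -0.0898, 0.0658 and -0.251 in knockout 1 to 3. Of the 88 tested members, 65 were shorter than 2529 nt, the upper bound of the shortest of 3 equal length classes of tested genes. The median deviation of the other genes of that class from their own means was 0.33, 0.24 and -0.27 in wild type 1 to 3 and -0.11, -0.48 and 0.34 in knockout 1 to 3, on the log2 scale. The members' own median deviation was 0.95, 0.46 and -0.77 in wild type 1 to 3 and -0.33, -1.09 and 0.81 in knockout 1 to 3. The members therefore followed the short genes in sign in each library, and deviated further than they did in each. When the length slope of each library entered the fit as a covariate, the median fold change of the members was 0.04, 36 of 88 were negative and limma called 0. The slope came from the same libraries with the members included. From its lowest value up, it ranked the libraries in the order most common among the core genes. Gene length and any other measure that follows this library pattern therefore cannot be told apart in that fit.

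**Figure D4:**
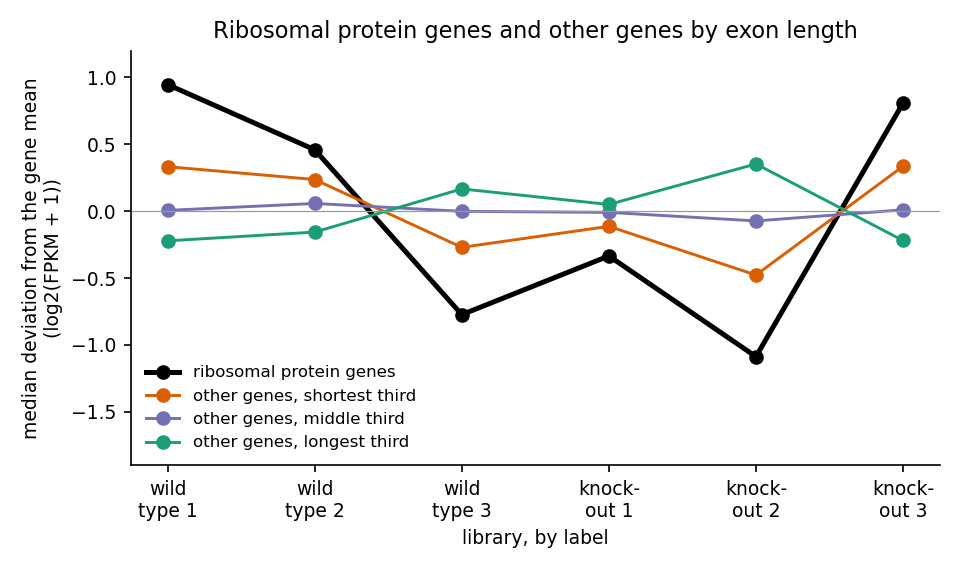
Median deviation from each gene's mean over 6 libraries, in log2(FPKM + 1), for the 88 tested ribosomal protein genes (black) and for the other tested genes in 3 classes of exon length. Ribosomal protein genes run from 0.95 in wild type 1 to -1.09 in knockout 2, the shortest class from 0.34 in knockout 3 to -0.48 in knockout 2, and the longest class the other way.

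Among the genes of the large subunit, levels ranged widely. Rpl41, the smallest ribosomal protein, stood at 5582, 3616 and 932 FPKM in wild type 1 to 3 and 1409, 731 and 5622 FPKM in knockout 1 to 3. It was the second most abundant member by mean FPKM, and its knockout 3 library was its highest. Rpl3, which lies near the peptidyl transferase centre, stood at 911, 596 and 275 against 358, 256 and 788 FPKM. Rpl10, a late-joining subunit whose X-linked gene is needed for the large subunit to become active, stood at 873, 666 and 327 against 421, 290 and 737 FPKM. Both genes showed the common order of libraries, and the groups overlapped in each.

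Rpl5 and Rpl11 encode the pair that binds 5S ribosomal RNA and MDM2. Rpl5 stood at 736, 469 and 179 FPKM in wild type 1 to 3 and 263, 163 and 638 FPKM in knockout 1 to 3. Rpl11 stood at 705, 492 and 222 against 293, 148 and 606 FPKM. Their log2 fold changes were -0.39 (SE 0.71) and -0.52 (SE 0.66), each smaller than its standard error, with adjusted p = 0.993 by limma for both.

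The low end of the large subunit held 3 core genes under a mean of 100 FPKM, and their levels are uncertain. Rpl24, which bridges the subunits, stood at 18.8, 13.5 and 7.43 against 9.81, 4.09 and 21.1 FPKM. Rpl13a, known for its release from the ribosome after interferon and often used as a reference gene, stood at 51.6, 44.8 and 24.5 against 27.7, 18.1 and 42.2 FPKM. Rpl21 had a mean of 89.8 FPKM. Of the 50-base words in their principal transcripts, 81.7%, 57.4% and 55.5% also occurred in another annotated gene, with 8, 5 and 81 pseudogenes sharing at least 1 word. How the authors assigned reads that fit several genes is not given in the sources used here.

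The P-stalk recruits elongation factors to the ribosome and is built from Rplp0, Rplp1 and Rplp2. Rplp1 was the most abundant member by mean FPKM. It stood at 9010, 5420 and 1715 FPKM in wild type 1 to 3 and 2554, 1175 and 8651 FPKM in knockout 1 to 3. Per kb of principal transcript, Rpl41 held more reads than Rplp1 in each library. It held 177925 against 133772 in wild type 1, and 28678 against 21473 in knockout 2. Rplp0 stood at 2825, 2273 and 1101 against 1372, 950 and 2749 FPKM. Rplp2 stood at 930, 701 and 218 against 297, 115 and 1301 FPKM. The highest value was 2.97 times the lowest for Rplp0, 7.67 times for Rplp1 and 11.4 times for Rplp2, so the 3 stalk genes did not keep 1 ratio across the libraries. Rplp2 relative to the core median was 1.70 in knockout 3 and 0.559 in knockout 2.

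In the small subunit, Rps15, which lies at the decoding centre, was among the 3 most abundant members by mean FPKM. It stood at 5526, 3377 and 914 FPKM in wild type 1 to 3 and 1414, 629 and 5917 FPKM in knockout 1 to 3. Rps6, the substrate of S6 kinase, stood at 1516, 1028 and 458 against 643, 430 and 1308 FPKM. Rps3, at the mRNA entry site, stood at 803, 622 and 257 against 350, 188 and 721 FPKM. Each of these had its 3 highest values in wild type 1, wild type 2 and knockout 3. Rps19, which is mutated in many families with Diamond-Blackfan anaemia, stood at 538, 359 and 129 against 182, 75.8 and 536 FPKM. Rps4x, an X-linked gene, stood at 1742, 1112 and 427 against 650, 399 and 1774 FPKM.

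Rps27a, whose product is made as a fusion of ubiquitin and a ribosomal protein, had the lowest fold change and the widest range of the core genes. It stood at 1284, 775 and 103 FPKM in wild type 1 to 3 and 222, 97.4 and 691 FPKM in knockout 1 to 3. Its level in knockout 3 was below that in wild type 2, against the order most common among the core genes. The log2 fold change was -0.92 (95% interval -3.56 to 1.72, n = 3 each), with adjusted p = 0.993 by limma.

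The amount from the large and the small subunit stayed close to 1 ratio. Summed FPKM of the large-subunit and stalk genes was 1.61, 1.57 and 1.52 times that of the small-subunit genes in wild type 1 to 3 and 1.5, 1.57 and 1.63 times in knockout 1 to 3. The group means were 1.57 ± 0.045 and 1.57 ± 0.0667 (SD, n = 3 each). The 10 members with most reads took 27.1% to 30.7% of all member reads in each library. The libraries therefore differed far more in the total of the family than in its division between subunits.

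Relative to the core median of each library, most core genes kept their place. The highest relative level of a core gene was 1.10 to 3.72 times its lowest, with a median of 1.44 times, and 13 of 76 exceeded 2 times. Rpl23a, Rpl15, Rpl7a, Rpl39 and Rps7 were the 5 that varied less than 2-fold in FPKM over the libraries. Rpl23a stood at 553, 489 and 437 FPKM in wild type 1 to 3 and 456, 411 and 412 FPKM in knockout 1 to 3. Rpl15 stood at 279, 251 and 221 against 246, 186 and 204 FPKM. These genes stood apart from the family in level across libraries, and they were chosen after their values were seen. Of their 50-base words, 82.6% in Rpl23a, 75.2% in Rpl15, 81.2% in Rpl7a, 16.2% in Rpl39 and 70.3% in Rps7 also occurred in other genes, where the median over the core genes was 52.6%.

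Levels within a library differed among core genes by an SD of 1.28 to 1.44 on the log2 scale of FPKM. The deposited exon length counts every annotated exon, and it was 1.00 to 7.18 times the length of the principal transcript, with a median of 2.27 times. Per base of the principal transcript instead, the SD among core genes was 1.16 to 1.31. Across the 76 core genes, mean FPKM and the ratio of exon length to principal transcript length had a Spearman rho of -0.52, a description in which length enters both values. The range over libraries had a rho of 0.30 with transcript GC content, -0.20 with the share of words found in other genes and -0.04 with exon length. All of these points share the same 6 libraries.

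Paralogues and copies were compared with their parent genes. Rpl22l1, which can take the place of Rpl22, stood at 55.9, 38.4 and 26.1 FPKM in wild type 1 to 3 and 34.5, 20.4 and 38.2 FPKM in knockout 1 to 3. Rpl22 stood at 281, 204 and 87.0 against 117, 75.8 and 227 FPKM, so the paralogue was at 0.169 to 0.300 of its level. Rps27l, a p53 target, stood at 194, 168 and 102 against 119, 93.4 and 180 FPKM. Rpl7l1, a factor related to Rpl7, stood at 59.4, 59.5 and 38.1 against 38.4, 27.8 and 65.3 FPKM, where Rpl7 stood at 1083, 737 and 280 against 418, 262 and 952 FPKM. Rpl3l, the form of Rpl3 found in striated muscle, held 0 to 2 reads per library. Rpl36al stood at 3.88, 4.55 and 2.84 against 3.04, 2.39 and 2.45 FPKM and had the smallest unadjusted p of the members, 0.123 (adjusted p = 0.993 by limma, log2 fold change -0.38). Its parent Rpl36a stood at 465, 272 and 100 against 147, 105 and 415 FPKM.

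Rps27 and Rps27rt were divided differently from library to library. Rps27 stood at 335, 423 and 214 FPKM in wild type 1 to 3 and 165, 107 and 443 FPKM in knockout 1 to 3. Rps27rt stood at 1013, 254 and 145 against 478, 586 and 332 FPKM, and was the only tested member with a positive fold change, 0.44 (95% interval -1.32 to 2.19, adjusted p = 0.993 by limma). Of the 50-base words of Rps27 and Rps27rt, 98.6% and 91.1% also occurred in another annotated gene. How the reads of the pair divide is therefore uncertain, because reads from shared sequence can go to either. Of the reads assigned to the pair, Rps27rt held 52.0%, 17.7% and 19.5% in wild type 1 to 3 and 51.0%, 66.3% and 21.2% in knockout 1 to 3. The exact binomial 95% intervals were 51.1% to 53.0% in wild type 1 and 16.9% to 18.5% in wild type 2, so these libraries of 1 label differed by more than counting error. The copy was thus assigned most of the reads of the pair in wild type 1 and knockout 2. It was assigned the smaller part in wild type 2, wild type 3 and knockout 3. In knockout 1 the interval, 49.7% to 52.2%, included an equal split. Summed over the pair, reads scaled to the authors' library total (RPM) were 728, 536 and 278 in wild type 1 to 3 and 351, 330 and 587 in knockout 1 to 3. The sum had its 3 highest values in the same libraries as the core genes. The authors' total was below the recovered reads in those 3 libraries and above them in the others.

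**Figure D5:**
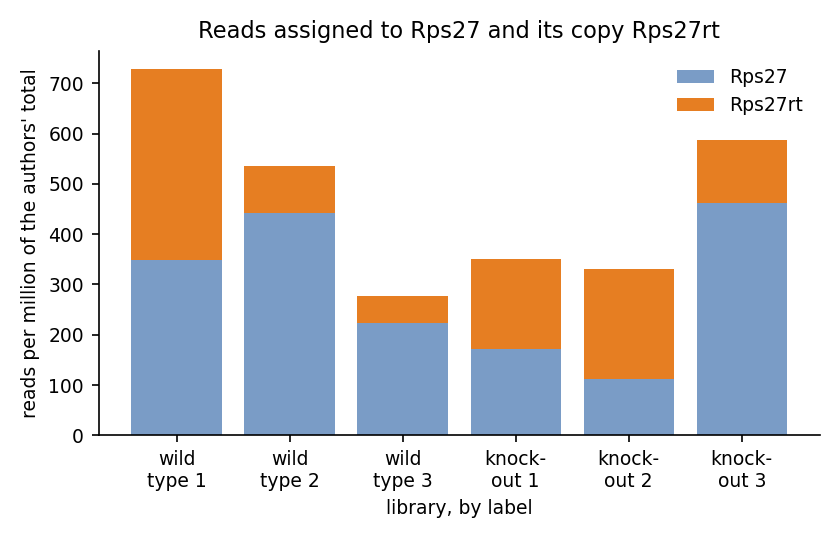
RPM, of the authors' library total, assigned to Rps27 (blue) and Rps27rt (orange), stacked, in each library (axis from 0). The copy holds 52.0%, 51.0% and 66.3% of the pair in wild type 1, knockout 1 and knockout 2, and 17.7% to 21.2% in the other libraries.

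Of the 9 genes with the ps suffix, 6 were tested and had negative fold changes, and none was called. Rps12-ps3, which was identical to Rps12 over all 450 aligned bases, stood at 1046, 687 and 289 FPKM in wild type 1 to 3 and 430, 272 and 915 FPKM in knockout 1 to 3. Rps12 itself stood at 601, 435 and 117 against 215, 125 and 706 FPKM, so by FPKM the copy was listed above its parent in every library. By reads the parent was above the copy, which held 24.0% to 37.6% of the reads of the pair. FPKM divides by exon length, which was 2027 nt for Rps12 and 494 nt for the copy. Values of both are uncertain because reads from shared sequence can go to either. Rpl10-ps3 and Rpl36a-ps1, with Rpl36al, were the 3 least abundant tested members. Rpl10-ps3 stood at 13.5, 10.4 and 5.37 against 7.52, 0.926 and 13.5 FPKM, and Rpl36a-ps1 at 16.5, 8.43 and 2.55 against 3.81, 1.22 and 13.0 FPKM. The 4 members that were not tested were Rpl3l, Rpl13a-ps1, Rpl9-ps1 and Rpl36-ps4. The last 2 held 0 reads in 104208514 over the 6 libraries, where the floor is 3 reads. Rps19bp1 stood at 91.5, 83.1 and 31.3 against 38.2, 16.8 and 103 FPKM, in the same direction as the core genes.

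The members lie on 20 chromosomes, with 14 on chromosome 7, 10 on chromosome 17 and 4 on the X chromosome. Many ribosomal protein genes carry small nucleolar RNAs, the guides of ribosomal RNA modification, in their introns. In the mm10 annotation of GENCODE M21, 29 of the 76 core genes held 55 snoRNA genes on the same strand. Rpl4 held 5 and Rpl13a held 4. Host genes had a median range over libraries of 3.86 times and the other core genes one of 4.78 times, given as a description.

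Other genes of the pathway were taken from lists chosen by function. Rack1, a scaffold on the small subunit, stood at 898, 671 and 286 FPKM in wild type 1 to 3 and 350, 225 and 742 FPKM in knockout 1 to 3. Its log2 fold change was -0.52, and it did not pass the test. Of 20 elongation factors and other TOP mRNAs, 0 passed in either direction and 17 were negative, with a median of -0.26. The summed level of these 20 genes had the order of libraries most common among the core genes. Eif3h, an initiation factor subunit, stood at 194, 179 and 133 against 142, 107 and 155 FPKM, and Eif3m at 115, 93.7 and 46.9 against 61.0, 44.2 and 90.2 FPKM.

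Genes that build and control ribosomes varied less. The summed levels of the ribosome biogenesis and RNA polymerase I lists still had the order of libraries most common among the core genes. The sum of the mTOR, S6 kinase and LARP1 list did not. The median deviation of that list from each gene's mean, in log2(FPKM + 1), ran in the reverse of that order. It was -0.19, -0.10 and 0.16 in wild type 1 to 3 and 0.12, 0.22 and -0.18 in knockout 1 to 3. The genes named below were taken by smallest p and do not stand for that order. Of 35 ribosome biogenesis genes, 0 passed and 25 were negative, with a median of -0.25. Rrs1, a factor for 5S particle assembly, stood at 24.9, 27.4 and 28.8 FPKM in wild type 1 to 3 and 22.7, 18.8 and 20.5 FPKM in knockout 1 to 3. It was the 1 gene of these 35 whose groups did not overlap, where 3.53% of all genes tested had groups that did not. Bysl, needed for the small subunit, stood at 12.4, 14.1 and 11.0 against 9.49, 6.17 and 12.4 FPKM. Of 15 RNA polymerase I genes, 0 passed and 10 were negative, with a median of -0.18. Polr1e, a polymerase I subunit, stood at 11.0, 10.5 and 5.40 against 5.54, 4.11 and 11.0 FPKM, and Twistnb, another, at 3.07, 2.93 and 4.32 against 4.72, 5.57 and 2.92 FPKM. Of 19 genes of mTOR, S6 kinase and LARP1 control, 0 passed and 12 were positive, with a median of 0.10. Pdcd4, an inhibitor of translation initiation that S6 kinase marks for degradation, stood at 8.54, 9.63 and 8.50 against 15.8, 11.7 and 9.63 FPKM. Rps6kb1, which encodes S6 kinase, stood at 2.10, 2.25 and 3.48 against 3.81, 5.49 and 2.46 FPKM, highest where the ribosomal protein genes were lowest. Of the 13 genes encoded in mitochondria, 0 passed and 10 were positive, with a median of 0.71. Mt-Nd2, a subunit of complex I, stood at 68.1, 71.6 and 913 against 519, 2159 and 81.7 FPKM, and mt-Nd3 at 3.29, 2.89 and 5.00 against 8.45, 7.23 and 2.43 FPKM.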

How the data were processed

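Per the file headers, the authors deposited FPKM values, 1 table per library. The submitters' processing notes list HISAT2 2.0.5 and mm10. No source used here names the counter or annotation release. The TruSeq RNA kit does not mark strand. FPKM times exon length gave whole reads in 100% of values above 0, within 0.01 reads. The authors' library total implied by these values was 0.894, 0.939 and 1.12 times the recovered reads in wild type 1 to 3. It was 1.12, 1.12 and 0.904 times in knockout 1 to 3. This scaling raises FPKM and RPM in wild type 1, wild type 2 and knockout 3 relative to the other libraries. Members and lists were chosen with earlier results of these data known. limma 3.58.1 in R 4.3.3 was fitted on log2(FPKM + 1), which understates changes of low genes, with a trend in the prior variance, over all genes with FPKM above 1 in at least 3 libraries, with Benjamini-Hochberg adjustment and a threshold of 0.05. It was tried on simulated counts without any pattern shared across genes of a library. The real libraries held such a pattern, so that trial does not show how the test works on them. A chi-square test of reads found each pair of same-label libraries further apart than sampling noise, so each library counts once. Principal transcripts, 50-base words and snoRNA positions came from GENCODE M21, where 92 members matched by ID and 83 had the same coordinates. Promoters came from RefSeq, GRCm38.p6. Alternatives were pseudocount, filters, library totals, limma-voom, replicate block, protein-coding genes, length slope and leaving out libraries. The rule for named genes took the 3 most and 3 least abundant members, the extremes of fold change, the smallest p, listed subunits and paralogue pairs, and the 2 genes of smallest p in each pathway list. Rpl24, Rpl21, Rpl23a, Rpl15, Rps12 and other genes outside it were named after their values were seen. Some items of the lists are not reported here.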

Additional observations from a re-analysis of the deposited data

How the results depend on the processing

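The tests with edgeR and DESeq2 were not run, because the deposited unit is FPKM. Under each other alternative set beforehand, limma called 0 of the members and 0 of the other ribosome and translation genes, also with the replicate block. With the length slope as a covariate it called 1 gene of all tested, and the cause was not tested. Without replicate 3 of both groups, chosen after the data were seen, it called 50 members, 31 other ribosome and translation genes and 3451 of all genes (1409 higher, 2042 lower). The members' median fold change, -0.42, turned to 0.040 with the length slope and was -1.44 without replicate 3 of both groups, where 16.3% of all genes were called lower. Leaving out 1 library at a time gave -0.92 to 0.0073, positive only without knockout 2. Numbers did not pair the libraries: deviations of same-numbered libraries correlated at -0.422, -0.672 and -0.894, no library of the 6 had its best match in its own number (0 of 6), and the block left 0 genes called. The permutation p of Gm12840, 0.9, lay between 0.6 and 1 with single libraries left out, and its difference turned positive without wild type 1 (p = 0.6), knockout 1 (0.8) or knockout 2 (1). With library totals as the scaling, 87 of 88 members were still negative (median -0.33), and 52 of the 93 other ribosome and translation genes were negative, where the main scaling gave 63. The share of reads in the members ran from 3.68% in knockout 2 to 13.1% in wild type 1, also without Rps19bp1. Over protein-coding reads without mitochondrially encoded genes it ran from 3.94% to 13.5% in the same libraries. Depth limits the lowest members, which held 0 to 2 reads (Rpl3l).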
